A study of Mus musculus with 8 samples.

Results

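The untreated day 6 retinal organoids are the starting state of a time course in mouse cells, and their transcriptome is described here across 28905 genes of the 35541 loci in the deposited table. A locus was kept when it carried a single gene name that was the sole name of no other locus, and the status OK in the untreated condition. The series holds 8 samples at 0, 1, 8 and 24 h of dTAG-13, a compound that triggers the degradation of proteins fused to an FKBP12F36V tag, and only the 2 samples at 0 h are described here. The organoids came from the Rx:GFP line, a reporter for the eye field gene Rax, in which FKBP12F36V-HA had been knocked into both endogenous Mettl3 alleles at the C-terminal end. They were differentiated in GMEM with 5% KSR (a serum replacement) and AGN at 0.1 µM, and polyadenylated RNA was sequenced. Every group of the series carries the same tag on Mettl3, so no unmodified cells enter these values. The labels do not say whether the untreated organoids received solvent, whether the line is a single clone, or whether the 2 replicates were separate cultures.

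Retinal organoids pass through the steps of eye development. Pluripotent cells first leave the stem cell state controlled by Pou5f1 and Nanog, become anterior neuroepithelium, and then switch on a set of transcription factors that together define the eye field, among them Rax, Pax6, Six3, Six6 and Lhx2. The eye field evaginates as the optic vesicle, which is divided into neural retina, pigment epithelium and optic stalk under the control of FGF, BMP, Wnt, hedgehog and retinoic acid signals, and neurons are born only later.

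Each gene has 1 deposited level, in FPKM (fragments per kilobase of transcript, scaled to the number of mapped fragments), with a lower and an upper bound, because the authors combined the 2 replicates. No spread between replicates, and so no test, can be had from these values. Where a range in FPKM follows a level, it is the deposited interval, whose level of confidence is not given in the sources used here. Levels of 2 genes are called apart where their intervals do not overlap. The estimated counts of the pooled untreated column, which the authors scaled within the table, summed to 32428510, of which the genes described here held 92.9%. The depth of each library was not analysed here. In the detected genes, those at an FPKM of at least 1, the median half-width of the interval was 25.9% of the level.

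The eye field markers Lhx2, Pax6, Six6, Rax and Six3 were all detected, as the label implies, and so was Pou5f1. Lhx2, a LIM homeobox factor needed for optic vesicle formation, stood at 142 FPKM (114 to 171) and Pax6, the paired-box factor of the whole eye primordium, at 126 FPKM (96.3 to 155). The levels of Lhx2 and Pax6 were not apart from each other, and both were apart from those of the other 4 markers. Six6 stood at 55.2 FPKM (44.3 to 66.2), Rax at 49.7 FPKM (39.9 to 59.5) and Six3 at 49.5 FPKM (30.01 to 69.0), and these 3 homeobox genes were not apart from one another. Six3 is uncertain, since a merged locus of the table also carries its name. Pou5f1, which encodes the pluripotency factor Oct4, stood at 34.7 FPKM (27.2 to 42.3). Its interval lay below that of Six6 and overlapped those of Rax and Six3. In all, 9 of the 15 pairs among the 6 markers were apart. In bulk RNA, a level of Pou5f1 in few cells and a lower level in many cells cannot be told apart.

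In the mouse assembly GRCm38, with gene models of GENCODE M21, Lhx2 lies at chr2:38339281-38369733 on the plus strand, Pax6 at chr2:105668900-105697360 on the plus strand, and Six6 at chr12:72939892-72944899 on the plus strand. Six3 lies at chr17:85613608-85629302 on the plus strand and Pou5f1 at chr17:35506018-35510772 on the plus strand. These intervals cover the whole genes, and the FPKM values sum over the exons of all their transcripts.

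The promoters of detected and undetected genes differed in their content of CG, the dinucleotide whose density marks CpG island promoters. The following 5 RefSeq promoters (GRCm38.p6, 250 bases before to 50 after the first listed start) are printed 5′ to 3′ on the strand of the gene, with every CG in capitals. Lhx2 (chr2:38339031-38339330, plus strand, 34 CG) is shown as a detected eye field gene with dense CG. Otx2 (chr14:48667595-48667894, minus strand, 6 CG) and Trpm1 (chr7:64153585-64153884, plus strand, 2 CG) are shown as genes at 116 and 45.0 FPKM whose listed promoter holds few. The lens crystallin gene Crybb1 (chr5:112255570-112255869, plus strand, 2 CG) and the pigment enzyme gene Tyr (chr7:87493463-87493762, minus strand, 0 CG) are shown as genes with 0 estimated counts.
Lhx2: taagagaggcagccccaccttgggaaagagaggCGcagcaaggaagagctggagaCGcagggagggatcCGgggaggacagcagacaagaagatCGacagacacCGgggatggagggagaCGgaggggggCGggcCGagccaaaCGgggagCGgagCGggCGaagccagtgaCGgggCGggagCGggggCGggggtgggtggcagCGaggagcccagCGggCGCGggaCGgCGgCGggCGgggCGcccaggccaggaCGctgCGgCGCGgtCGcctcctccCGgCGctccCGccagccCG
Otx2: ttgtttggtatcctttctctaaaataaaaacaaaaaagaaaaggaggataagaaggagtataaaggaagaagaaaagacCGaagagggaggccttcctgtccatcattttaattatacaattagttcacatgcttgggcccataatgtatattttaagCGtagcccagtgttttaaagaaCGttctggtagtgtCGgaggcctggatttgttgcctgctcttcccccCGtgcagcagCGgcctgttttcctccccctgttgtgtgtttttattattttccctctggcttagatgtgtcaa
Trpm1: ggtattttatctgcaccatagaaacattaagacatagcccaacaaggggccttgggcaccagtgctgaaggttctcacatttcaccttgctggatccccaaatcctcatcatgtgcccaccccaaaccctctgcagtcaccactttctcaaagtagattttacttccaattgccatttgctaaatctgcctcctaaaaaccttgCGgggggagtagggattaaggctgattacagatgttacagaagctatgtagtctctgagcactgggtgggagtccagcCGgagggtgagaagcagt
Crybb1: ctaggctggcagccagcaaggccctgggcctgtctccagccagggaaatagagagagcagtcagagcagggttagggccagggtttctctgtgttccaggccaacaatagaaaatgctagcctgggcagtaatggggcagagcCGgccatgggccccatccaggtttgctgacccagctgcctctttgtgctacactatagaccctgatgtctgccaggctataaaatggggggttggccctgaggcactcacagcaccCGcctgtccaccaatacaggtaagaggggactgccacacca
Tyr: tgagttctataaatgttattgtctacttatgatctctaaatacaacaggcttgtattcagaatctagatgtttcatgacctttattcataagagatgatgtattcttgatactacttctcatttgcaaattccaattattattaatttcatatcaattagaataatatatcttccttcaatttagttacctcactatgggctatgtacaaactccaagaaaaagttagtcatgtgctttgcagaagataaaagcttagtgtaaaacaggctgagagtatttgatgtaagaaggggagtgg

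The ratio of observed to expected CG was 0.885 for Lhx2, against 0.463 for Otx2, 0.114 for Trpm1, 0.0784 for Crybb1 and 0 for Tyr. Over the 15251 protein-coding genes with a listed promoter (80.3% of 18994), the median ratio was 0.596. It was 0.220 in genes below 1 FPKM, 0.714 at 1 to 10 FPKM, 0.808 at 10 to 50 FPKM and 0.844 at 50 FPKM or more. A promoter with a ratio of at least 0.6 and a GC content of at least 55% was called CpG-rich, which 42.9% of all these promoters were. The share was 12.9% in genes below 1 FPKM, 58.7% at 1 to 10 FPKM, 69.9% at 10 to 50 FPKM and 72.3% at 50 FPKM or more. The widest step lay between the undetected genes and those at 1 to 10 FPKM. Promoters were matched for 79.2% and 79.4% of the genes in the lower 2 classes and for 82.1% and 82.6% in the upper 2.

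The core promoter motif TATAAA, searched on the gene's strand in the 50 bases before the start, was found in 3.53% of all these promoters. It was in 6.54% of the promoters of genes below 1 FPKM, and in 1.76%, 0.647% and 1.40% of those in the 3 rising classes of detected genes. The motif CCAAT, searched on both strands over the whole window, was found in 38.9% of all promoters and in 37.6%, 38.6%, 40.01% and 42.5% of the 4 classes in rising order. A match is a match of letters only. Genes are not replicates, and these shares are descriptions.

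**Figure D1:**
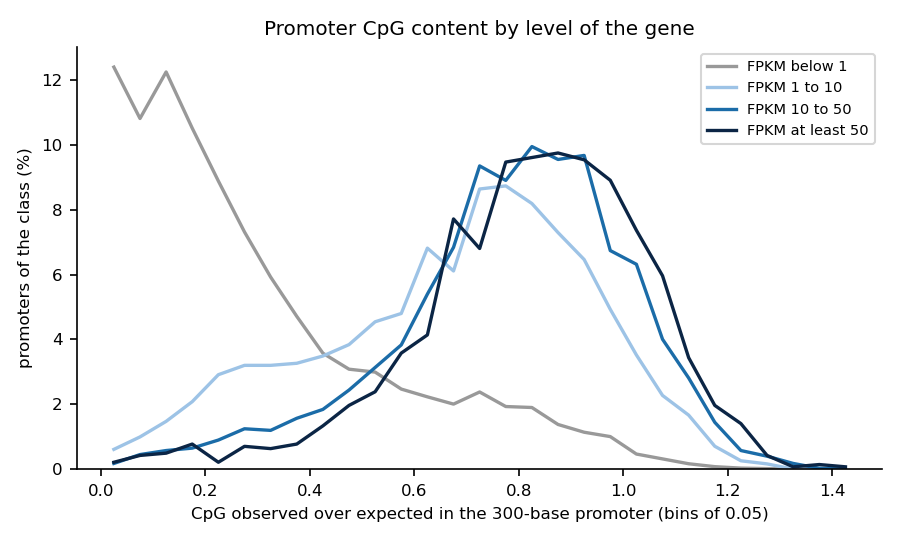
Distribution of the observed over expected CG ratio in 300-base RefSeq promoters (x axis, bins of 0.05) as a percentage of the promoters of each class (y axis), with a line for each of 4 classes of FPKM. Genes below 1 FPKM had a median of 0.220, and the medians of the 3 detected classes lay between 0.714 and 0.844.

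Of the 28905 genes, 11102 (38.4%) were detected at an FPKM of at least 1 and 6822 (23.6%) reached 10. Among the 20117 protein-coding genes, 10752 (53.4%) were detected and 6727 (33.4%) reached 10 FPKM, and these shares are the background for the gene lists below. The detected genes comprised 4280 at 1 to 10 FPKM, 5045 at 10 to 50 FPKM and 1777 at 50 FPKM or more, with a median of 14.7 FPKM. Another 11638 genes had 0 estimated counts. Long non-coding genes were seldom detected: 160 of 4963 lincRNA genes (3.22%) and 94 of 2648 antisense genes (3.55%) reached 1 FPKM. The strandedness of counting is not given in the sources used here, so reads of an antisense gene and of its partner cannot be told apart.

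The most abundant transcripts encoded the machinery of protein synthesis. Eef1a1, the elongation factor that brings aminoacyl-tRNA to the ribosome, was the highest gene at 7823 FPKM (6133 to 9512) and also held the most estimated counts, 376657. The mitochondrially encoded mt-Co1, a subunit of cytochrome oxidase, followed at 6012 FPKM (4828 to 7197), and its interval overlapped that of Eef1a1. The ribosomal protein gene Rps14 was at 4109 FPKM (3235 to 4982), below mt-Co1 with an overlap of the intervals. Below it came Rplp1 at 3308, Rps24 at 3215, mt-Nd1 at 3086 and mt-Cytb at 2934 FPKM. The rest of the 15 highest genes included the ribosomal protein genes Rpl41, Rps15, Rps2, Rps27, Rpl32 and Rpl26, between 2821 and 2221 FPKM, and Npm1, a nucleolar chaperone of ribosome assembly, at 2150 FPKM.

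Cytosolic ribosomal protein genes as a class, 79 of 80 of them detected, had a median of 1175 FPKM. They made up 60 of the 100 highest genes and 20.4% of the summed FPKM, but 4.62% of the estimated counts, a scale that is not divided by transcript length. The 8 mitochondrially encoded genes had a median of 1310 FPKM and held 2.96% of the summed FPKM. The 10 highest genes together held 7.75% of the summed FPKM, the highest 100 held 31.3% and the highest 1000 held 62.2%. Ranked by estimated counts, the highest 100 held 16.6% of the counts.

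The ranking by estimated counts brought up longer transcripts. After Eef1a1 and mt-Co1 came the chaperone gene Hsp90ab1 with 158108 estimated counts, the translocation factor gene Eef2 with 143888, the imprinted gene Mest with 130429 and the pyruvate kinase gene Pkm with 126566. The ubiquitin ligase gene Nedd4 had 100407 and the tubulin gene Tubb5 93637, followed by mt-Cytb and Npm1. Mest and Nedd4 differed on the length-corrected scale, at 1690 FPKM and 572 FPKM. Among long non-coding genes, Gm10076 at 791 FPKM and the imprinted H19 at 531 FPKM were highest, followed by Malat1 at 149 FPKM (61.3 to 237) and the imprinted Meg3 at 95.4 FPKM.

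Glycolytic genes were high as a group: all 16 in the table reached 10 FPKM, with a median of 299 FPKM. Pkm stood at 1749 FPKM, the glyceraldehyde phosphate dehydrogenase gene Gapdh at 1718, the lactate dehydrogenase gene Ldha at 1036 and the aldolase gene Aldoa at 1013 FPKM. Cell cycle genes were detected in 26 of 26 cases, 23 of them at 10 FPKM or more, with a median of 75.2 FPKM. The highest were the G1 kinase gene Cdk4 at 408 FPKM, the topoisomerase gene Top2a at 258, the replication clamp gene Pcna at 248 and the mitotic kinase gene Cdk1 at 189 FPKM. Only 3 genes of this list lay below 10 FPKM: the inhibitor genes Cdkn1c at 5.88 and Cdkn2a at 3.15, and Cdk6 at 1.40 FPKM, whose interval ran from 0.0525 to 2.74.

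The m6A machinery, which writes, reads and erases N6-methyladenosine on mRNA and to which Mettl3 belongs, was present before any degradation of the tagged protein. All 13 of its genes kept here reached 10 FPKM, with a median of 44.0 FPKM. Another 5 of the 18 listed genes were left out by the naming rule. The merged loci of Virma, Ythdc1 and Rbm15b stood at 37.6, 53.9 and 371 FPKM, and that of Rbm15 at 9.46 FPKM. The loci named Ythdc2 stood at 6.74 and 0.183 FPKM. The highest were the reader genes Igf2bp2 at 105 FPKM and Igf2bp3 at 89.4 FPKM, the writer subunit gene Wtap at 56.9 FPKM and the reader gene Igf2bp1 at 47.0 FPKM. Mettl3, the catalytic subunit that carries the tag, stood at 19.4 FPKM (10.7 to 28.1), an uncertain value because its locus overlaps that of Tox4, which has a higher level. An mRNA level says nothing about the tagged protein.

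Among transcription factors, 449 genes of 47 families were read, and 239 (53.2%) were detected against 53.4% of all protein-coding genes. At 10 FPKM the share was 26.5%, against 33.4%. The median factor stood at 1.27 FPKM, and 10 exceeded 100 FPKM. Sox2 was left out of this ranking because its name is carried by several loci, at 107.2 and 2.07 FPKM. Hmga1, which encodes an architectural chromatin protein of proliferating cells, was highest at 197 FPKM (153 to 242). The inhibitors of basic helix-loop-helix factors Id2 and Id3 followed at 162 and 132 FPKM, and the Hippo pathway factor gene Tead2 at 144 FPKM. Lhx2, Pax6 and Otx2, a homeobox gene of the forebrain and eye at 116 FPKM (88.7 to 143), had intervals that overlapped those of Id2, Id3 and Tead2.

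The E protein gene Tcf12, at 121 FPKM, stood between Pax6 and Otx2, with overlapping intervals. Below Otx2 came the orphan nuclear receptor gene Nr2f1 at 101, Trp53 at 100.2 and the stress response factor gene Atf4 at 90.5 FPKM. Sall2, a zinc-finger gene known for its part in closing the optic fissure, stood at 89.0 FPKM, Tcf3 at 81.7 and the forebrain zinc-finger gene Zic2 at 79.0 FPKM. Hmga2 at 76.7 FPKM, the Notch target Hes1 at 74.4, Id1 at 59.1 and Tcf4 at 58.1 FPKM (26.5 to 89.6) preceded Six6 and the insulator gene Ctcf, both at 55.2 FPKM. Of the 40 highest factors, 9 belonged to the list of eye field factors, which also names the left-out Sox2.

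**Figure D2:**
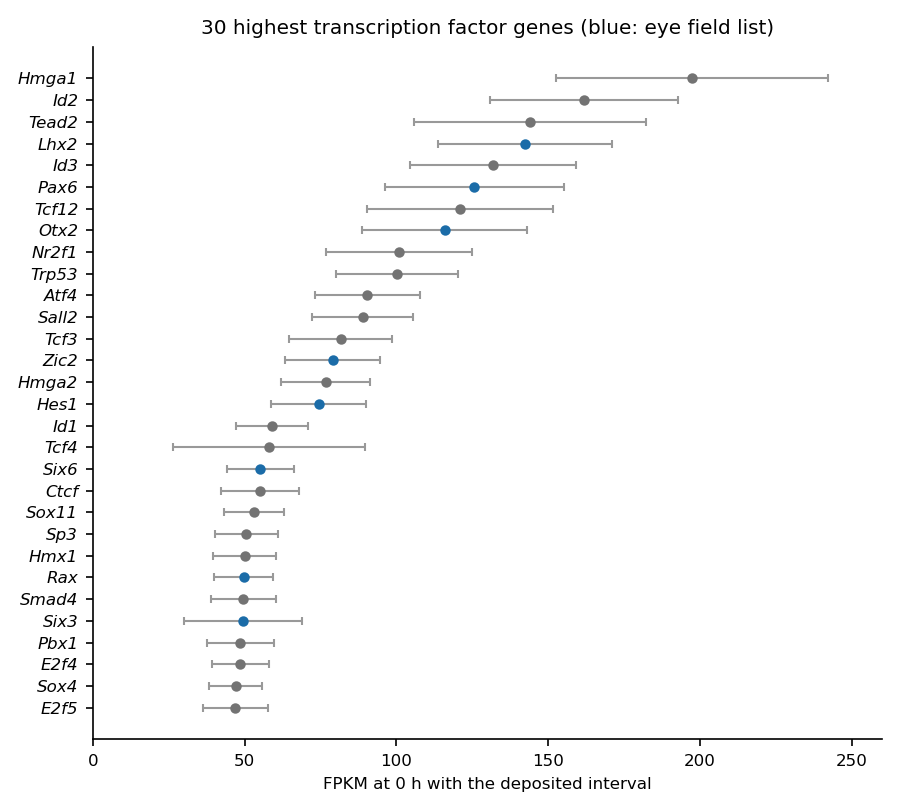
FPKM at 0 h (x axis, points) with the deposited interval (bars) of the 30 highest transcription factor genes, with genes of the eye field list in blue. Lhx2, Pax6 and Otx2 lie among the 8 highest, and most neighbouring intervals overlap. Sox2 was left out by the naming rule and is not drawn.

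Several families rested on a single member. In 19 of the 44 families with 3 members or more, the highest member held over 50% of the family's summed FPKM. Lhx2 held 97.6% of the summed FPKM of the Lhx genes, Tead2 93.2% of the Tead genes, Sall2 83.2% of the Sall genes, and Pax6 79.9% of the Pax genes, with Pax2 second. The sums cover only genes kept by the naming rule. Sall1, whose name is carried by several loci, at 19.0 and 0.836 FPKM, was left out, so the share of Sall2 is too high. Gli3 held 79.6% of the Gli genes, Hes1 74.3% of the Hes and Hey genes, Pou5f1 62.6% of the Pou genes and Zic2 60.5% of the Zic genes. In each of these 8 families the interval of the highest member lay above that of the second. Six6 held 46.5% in its own homeobox family and was not apart from Six3, the second.

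Hox genes, which pattern the trunk and hindbrain, were below detection, with 0 of 33 at 1 FPKM and 21 of 33 at 0 estimated counts. The 6 Dlx genes and Onecut2 and Onecut3, which act in differentiating neurons, also lay below 1 FPKM. These were the 3 families in which every member lay below 1 FPKM.

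The list of eye field factors had 14 genes in the table. All 14 were detected and 13 reached 10 FPKM, with a median of 52.5 FPKM. After the genes above, the Mab21 family gene Mab21l1 stood at 56.0 FPKM and Meis1, a cofactor of homeodomain proteins, at 38.8 FPKM. Mab21l2 was at 29.98, Meis2 at 29.2 and the orphan nuclear receptor gene Nr2e1 (Tlx) at 18.0 FPKM. Tbx3 was lowest at 2.82 FPKM (2.06 to 3.59). Neighbours in this order were apart in 2 of 13 cases, Meis2 from Nr2e1 and Nr2e1 from Tbx3.

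Pluripotency genes were detected throughout but mostly at lower levels. All 24 genes of the naive pluripotency list reached 1 FPKM, 9 reached 10 FPKM, and the median was 7.44 FPKM. Dppa5a, an RNA-binding protein gene of stem cells, stood highest at 199.7 FPKM (160.8 to 239) and Lin28a, the let-7 inhibitor gene, at 157 FPKM (126 to 187). Both lay above Pou5f1 with no overlap, and Lin28a is also known in early neural progenitors. The co-receptor gene Tdgf1, which was also on the primed pluripotency list, followed Pou5f1 at 22.7 FPKM. Trim71, a let-7 target also known in neuroepithelium, stood at 22.0 FPKM. Whether these levels come from cells in a naive state was not tested. Nanog was at 20.7 FPKM (16.6 to 24.8) and Zfp42 (Rex1) at 20.01 FPKM. The lowest were Nr0b1 at 1.29 and Prdm14 at 1.02 FPKM.

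Of the pluripotency genes other than Pou5f1, 20 had an upper bound below the lower bound of Pou5f1, and 21 of the 24 lay below the lower bound of Rax. Of the eye field genes, Lhx2, Pax6, Otx2, Zic2, Hes1 and Six6 lay above the upper bound of Pou5f1, while Nr2e1 and Tbx3 lay below its lower bound. On the log2 scale with 0.1 FPKM added, the median of the eye field list exceeded that of the pluripotency list by 2.80, a ratio of 6.97. The deposited count variances alone gave this difference an SD of 0.213, which holds no spread between replicates beyond what the authors' model took in. Tbx3 belonged to both lists.

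**Figure D3:**
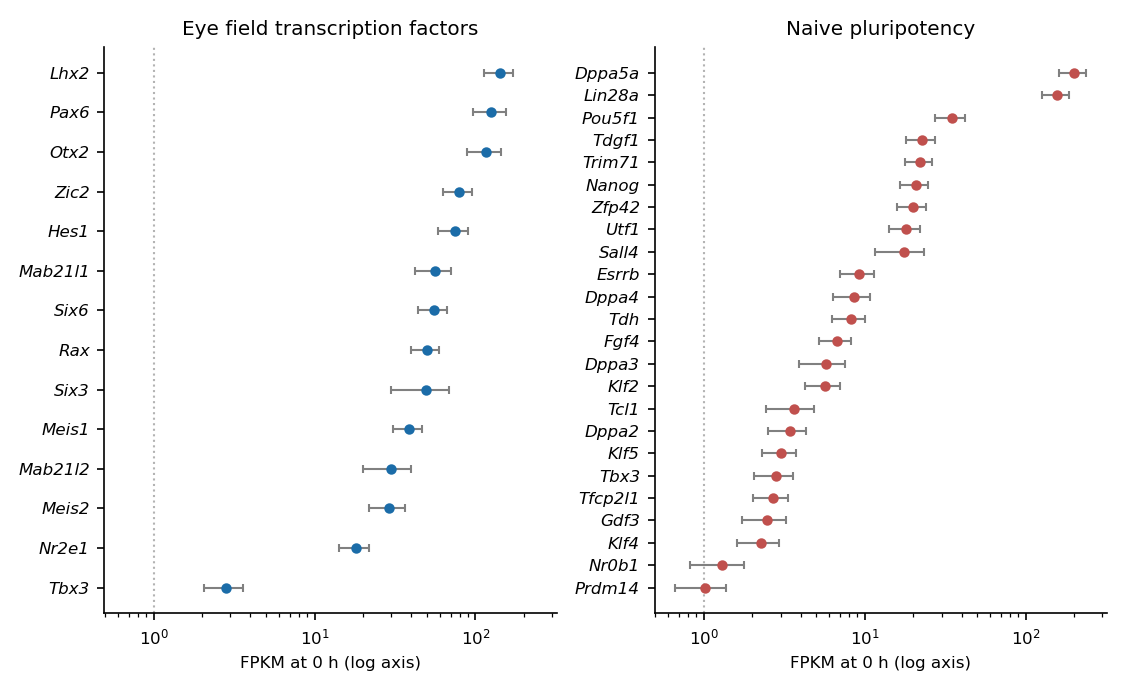
FPKM at 0 h (x axis, log scale) with the deposited interval (bars) for the 14 eye field genes (left) and the 24 naive pluripotency genes (right), and a dotted line at 1 FPKM. The eye field genes other than Tbx3 lie between 18.0 and 142 FPKM, and the pluripotency genes other than Dppa5a and Lin28a lie at or below the 34.7 FPKM of Pou5f1.

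Genes of the primed, epiblast-like state were mixed. Of 16, 11 were detected and 8 reached 10 FPKM, with a median of 12.002 FPKM. Its 4 highest were Otx2, Sall2, Zic2 and Sox4, a neural progenitor factor gene at 47.0 FPKM, of which Otx2 and Zic2 were also on the eye field list. Fgf5, the defining growth factor gene of the epiblast, was undetected at 0.981 FPKM (0.581 to 1.38).

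Neuroepithelial genes were present in 19 of 21 cases, with 13 at 10 FPKM or more and a median of 14.1 FPKM. The intermediate filament gene Vim stood at 182 FPKM, the N-cadherin gene Cdh2 at 103.5 and the RNA-binding protein gene Msi1 at 90.3 FPKM. The POU factor genes Pou3f2 and Pou3f4 were below detection, at 0.499 and 0.501 FPKM. Sox2, the general neural progenitor factor gene, was left out because its name is carried by 2 loci.

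The neural retina domain of the optic vesicle was represented by all 11 of its genes in the table, 9 at 10 FPKM or more, with a median of 25.2 FPKM. Sfrp2, a secreted Wnt inhibitor gene, stood at 247 FPKM (199.6 to 295), Nr2f1 at 101, the related inhibitor gene Sfrp1 at 66.5 and Hmx1 at 50.03 FPKM (39.7 to 60.4).

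The optic stalk and ventral list was also complete, with 7 of 7 detected, 5 at 10 FPKM or more and a median of 29.0 FPKM. The ventral homeobox gene Vax2 was at 43.5 FPKM (30.9 to 56.2), the retinaldehyde dehydrogenase gene Aldh1a3 at 37.7, the optic stalk factor gene Pax2 at 29.4 and the receptor gene Ephb2 at 29.0 FPKM. The dorsal list was sparser, with 5 of 7 detected, 3 at 10 FPKM or more and a median of 2.34 FPKM. The ephrin gene Efnb2 stood at 26.2 FPKM, Bmp4, the dorsal signal of the optic vesicle, at 13.0 with a wide interval of 1.90 to 24.1 FPKM, Efnb1 at 10.9 and Tbx2 at 2.34 FPKM. Tbx5, a dorsal retinal T-box gene, was at 0.0793 FPKM.

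In the pigment epithelium list, 6 of 11 genes were detected and 4 reached 10 FPKM, with a median of 3.08 FPKM. The gap junction gene Gja1 stood at 104 FPKM, Pmel at 28.8 (13.1 to 44.5), Mitf, the master factor of pigment cells, at 19.2 (15.4 to 22.9) and the melanin enzyme gene Dct at 11.5 FPKM. Pmel is uncertain, because its locus overlaps Cdk2, which is higher. The other detected genes were Otx1 at 6.52 FPKM and Lhx5 at 3.08 FPKM. Lhx5 was the median gene and was also on the diencephalon list. Whether the levels of this list come from pigment epithelium was not tested. Tyr and Rpe65, enzyme genes of mature pigment epithelium, had 0 estimated counts, for which the floor is 3 estimated counts.

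The nasal and temporal list had 2 of 6 genes detected, Epha4 at 27.7 and the ephrin gene Efna5 at 25.3 FPKM. The temporal factor gene Foxd1 was at 0.380 FPKM. Of the lens genes, 3 of 11 were detected: Maf at 15.96, Prox1 at 7.08 and the small heat shock protein gene Cryab at 7.03 FPKM. The channel gene Mip, whose locus overlaps Timeless, was at 0.878 and the lens factor gene Pitx3 at 0.824 FPKM.

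Differentiation genes were mostly low. Of 18 neurogenic genes, 5 were detected, 3 at 10 FPKM or more, with a median of 0.221 FPKM. These 3 were Hes6 at 15.4, the antiproliferative gene Btg2 at 14.8 and the Notch ligand gene Dll1 at 10.96 FPKM. Mfng, a modifier of Notch, was at 2.37 FPKM and the proneural gene Neurog1 at 0.0752 FPKM. Of 25 genes of postmitotic neurons, 9 were detected and 0 reached 10 FPKM, with a median of 0.575 FPKM. Tubb3, Elavl3 and Onecut1 are not among the 25. Tubb3 was not matched by name, and the merged loci of Elavl3 and Onecut1 stood at 6.34 and 0.251 FPKM. The highest were the synaptic vesicle gene Syt1 at 9.56, the growth cone gene Gap43 at 4.99, Stmn2 at 4.67 and Map2 at 3.92 FPKM, and the migration gene Dcx was at 0.262 FPKM.

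Of 20 genes of photoreceptors and retinal interneurons, 3 were detected and 10 had at most 3 estimated counts. Trpm1 was the only gene of this list at 10 FPKM or more, at 45.0 FPKM (34.1 to 56.0). It encodes a channel known in ON bipolar cells and also in melanocytes, where it is named melastatin. The photoreceptor factor gene Crx was at 1.34 FPKM (0.908 to 1.77), Prkca at 1.01 with an interval of 0.164 to 1.86, and Prdm1 at 0.547 FPKM. Of 11 glial genes, 5 were detected. Glul, the glutamine synthetase gene found in many cell types, was at 102.9 FPKM, Rlbp1, a retinoid carrier gene of Müller glia and pigment epithelium, at 6.75, Mbp at 3.72 and Slc1a3 at 3.20 FPKM. Gfap was at 0.0337 FPKM.

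Lists of other regions and germ layers were read in the same way. The 14 lists of other brain regions, neural crest, ectoderm, mesoderm, endoderm, extraembryonic, germ, blood and mesenchymal cells held 212 genes, of which 77 (36.3%) were detected and 25 (11.8%) reached 10 FPKM. Over all protein-coding genes the shares were 53.4% and 33.4%. The median of these 212 genes was 0.374 FPKM, and 51 had at most 3 estimated counts.

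**Figure D4:**
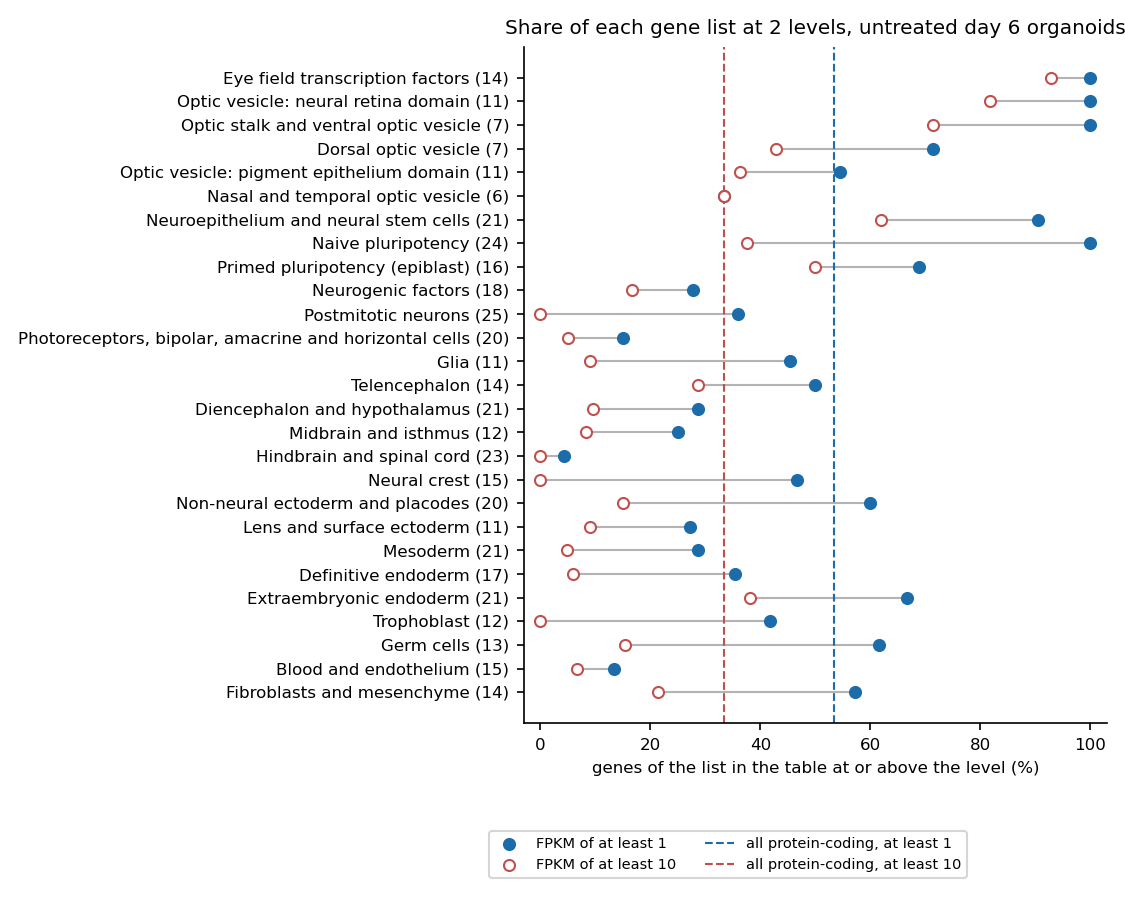
Percentage of the genes of each list (number in the table in brackets) at an FPKM of at least 1 (filled blue) and at least 10 (open red), with dashed lines for all protein-coding genes (53.4% and 33.4%). The eye field, neural retina, optic stalk and naive pluripotency lists are fully detected, and the hindbrain list stands lowest, with 1 of 23 genes detected.

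Fewer genes were detected in the lists of more posterior brain regions. In the telencephalon list 7 of 14 genes were detected, led by the zinc-finger gene Fezf2 at 20.8 FPKM, Lmo3 at 20.7, the homeobox gene Emx2 at 20.7 and Dmrta2 at 19.8 FPKM, which were not apart from one another. In the diencephalon and hypothalamus list 6 of 21 were detected, with a median of 0.102 FPKM. After Fezf2, it was led by Tcf7l2 at 10.3, the Wnt ligand gene Wnt8b at 4.17 and Lhx5 at 3.08 FPKM, while Nkx2-1, the hypothalamic homeobox gene, was at 0.0548 FPKM.

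In the midbrain list 3 of 12 were detected: Pax2, shared with the optic stalk, Wnt1 at 1.99 and Lmx1b at 1.75 FPKM. The isthmus signal gene Fgf8 was at 0.920 FPKM and the midbrain factor gene En1 at 0.0761 FPKM. In the hindbrain and spinal cord list 1 of 23 genes was detected. The hindbrain factor gene Egr2 was at 0.358 FPKM, and 16 of the 23 had at most 3 estimated counts.

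Neural crest genes were detected in 7 of 15 cases and 0 reached 10 FPKM. Sox5 was at 4.46, Msx1 at 3.48, the receptor gene Erbb3 at 2.27 and Pax3 at 1.49 FPKM, and Sox10, which defines migrating crest, was at 0.0829 FPKM. Non-neural ectoderm and placode genes were detected in 12 of 20 cases, with a median of 1.96 FPKM. The simple epithelial keratin genes Krt18 and Krt8 stood at 23.7 and 20.9 FPKM, Eya2 at 16.8 and the E-cadherin gene Cdh1 at 9.76 FPKM.

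Mesoderm genes were detected in 6 of 21 cases, with a median of 0.0806 FPKM. The highest was Kdr, a VEGF receptor gene also known in retinal progenitors, at 21.9 FPKM (17.7 to 26.0), followed by Hand1 at 2.46, Pdgfra at 2.02 and Tcf15 at 1.87 FPKM. T, the brachyury gene of the primitive streak, was at 0.0806 FPKM. Kdr was likewise the highest of 15 blood and endothelial genes, of which Pecam1 at 3.48 FPKM was the other detected one. Flt1 was at 0.560 and Tek at 0.483 FPKM, and 6 genes of that list had 0 estimated counts, globin genes among them.

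Of 17 definitive endoderm genes, 6 were detected. They were led by the claudin gene Cldn6 at 10.7, Cxcr4 at 5.08, Spink1 at 4.13 (1.49 to 6.77) and Gata4 at 1.51 FPKM, and Sox17 was at 1.06 FPKM (0.422 to 1.70). The extraembryonic endoderm list stood higher, with 14 of 21 detected and 8 at 10 FPKM or more. Its highest genes were the lipid carrier gene Apoe at 434 FPKM, the matrix protein gene Sparc at 218, Lamb1 at 54.3 and Col4a1 at 46.3 FPKM, which are made by many cell types, and the last 2 were also on the basement membrane list. Gata4, the defining factor gene of this list, was at 1.51 FPKM (0.980 to 2.04).

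Trophoblast genes were detected in 5 of 12 cases, with Tfap2c at 7.62, Hand1 at 2.46, Krt7 at 1.58 and Plac1 at 1.14 FPKM, and Cdx2 was at 0.0509 FPKM. Germ cell genes were detected in 8 of 13 cases, with Rhox5, an X-linked homeobox gene, at 35.9, the receptor gene Kit at 12.5, Dppa3 at 5.75 and Dnd1, whose locus overlaps Wdr55, at 3.52 FPKM. Dazl was at 1.38 FPKM. Fibroblast and mesenchymal genes were detected in 8 of 14 cases, with the fibronectin gene Fn1 at 53.0, the smooth muscle actin gene Acta2 at 46.8, Tagln at 38.0 and Col1a2 at 9.50 FPKM, while Col1a1 was at 1.08 FPKM. The part of other cell types in the levels given here was not tested.

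Signalling genes were read as receptors, ligands and targets, and in the Wnt, FGF and TGF-β families the median receptor stood above the median ligand. Of 19 Wnt receptors and co-receptors, 18 were detected and 12 reached 10 FPKM, with a median of 18.0 FPKM. The frizzled genes Fzd1 at 51.3, Fzd3 at 47.0 and Fzd5 at 36.5 FPKM, the last known in optic vesicle development, led with Ryk at 34.0 FPKM, and Lgr6 at 0.0212 FPKM was the one not detected. Of 19 Wnt ligands, 5 were detected, with a median of 0.281 FPKM, led by Wnt5b at 20.2, Wnt7b at 10.4, Wnt8b at 4.17 and Wnt5a at 3.33 FPKM. Wnt inhibitors and targets were detected in 10 of 16 cases, led by Sfrp2 and Sfrp1, with Dkk3 at 30.8 and Nkd1 at 14.0 FPKM.

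Among the FGF receptor genes kept here, Fgfr1 was highest at 40.2 FPKM (30.9 to 49.5). The decoy-like Fgfrl1 was at 6.51, Fgfr3 at 3.23 and Fgfr4 undetected at 0.349 FPKM. Fgfr2 was left out because it shares a merged locus with Ctbp2, at 75.5 FPKM. Its own level cannot be read from that locus, so its rank against Fgfr1 is not known. Of 13 ligand genes, 4 were detected: Fgf13 at 51.4, which encodes an intracellular and not a secreted member of the family, Fgf15 at 7.08, Fgf4 at 6.71 and Fgf9 at 2.39 FPKM. The targets and feedback genes of the pathway were detected in 11 of 12 cases, led by the phosphatase gene Dusp6 at 24.8, Spred1 at 22.7, Etv5 at 16.6 and Spry2 at 14.7 FPKM. Spry4, at 0.713 FPKM, was the one not detected.

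Receptors of the TGF-β, activin and BMP family were detected in 9 of 14 cases, with a median of 6.27 FPKM. The type I receptor genes Tgfbr1 at 58.5 and Bmpr1a at 53.2 FPKM were not apart, and the type II receptor genes Acvr2b at 25.9 and Acvr2a at 13.8 FPKM followed, the last overlapping loci of higher level. Ligands were detected in 12 of 17 cases, with a median of 2.10 FPKM, and the highest were Gdf11 at 13.5, Bmp4 at 13.0, Bmp7 at 11.2 and Bmp1, a protease despite its name, at 6.72 FPKM. Of 13 BMP inhibitors and targets, 11 were detected. They were led by Id2, Id3, Fstl1 at 63.2 FPKM and Id1, while the antagonist gene Chrd was at 0.839 FPKM and Cer1 had 0 estimated counts.

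**Figure D5:**
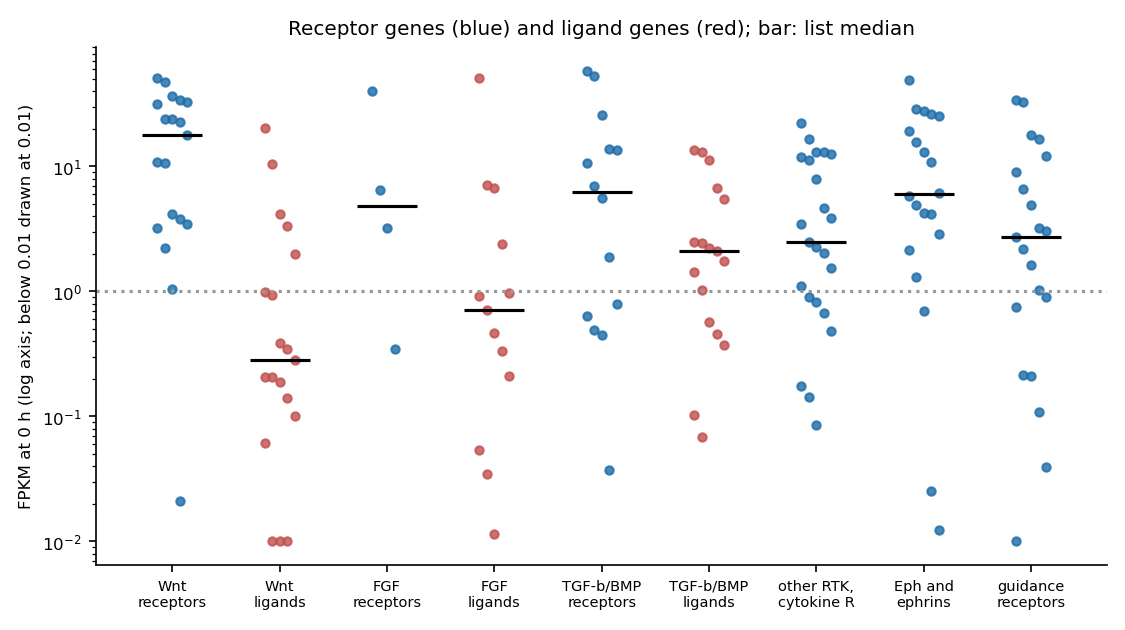
FPKM at 0 h (y axis, log scale, values below 0.01 drawn at 0.01) of receptor genes (blue) and ligand genes (red) of each signalling list, with each point a gene, a bar at the list median and a dotted line at 1 FPKM. The median Wnt receptor stands at 18.0 FPKM and the median Wnt ligand at 0.281 FPKM.

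In the hedgehog pathway 8 of 13 genes were detected. The transducer gene Smo was at 60.8 FPKM, the co-receptor genes Gas1 and Cdon at 56.8 and 36.3, and Gli3, the main repressor-forming factor of the pathway, at 30.1 FPKM. The ligand gene Shh was at 0.0285 FPKM from fewer than 3 estimated counts, and the target Gli1 at 0.634 FPKM. Ptch1, also on this list, was detected and ranked above Gli2, which stood at 7.11 FPKM. Dhh, another ligand gene, was left out because it shares a merged locus with Rhebl1, at 10.4 FPKM, from which its own level cannot be read. In the Notch pathway 16 of 20 genes were detected, led by Hes1, with the DNA-binding mediator gene Rbpj at 35.0, Notch3 at 19.6 and the feedback inhibitor gene Nrarp at 16.6 FPKM. The 4 below detection were Dll3 at 0.759, Hey2 at 0.560, Dll4 at 0.0507 and Heyl at 0.0173 FPKM.

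Retinoic acid genes were detected in 15 of 19 cases. The intracellular binding protein genes stood highest, with Crabp2 at 448 FPKM (363 to 533) and Crabp1 at 189.6 FPKM, and the 2 levels were apart. Aldh1a3, the synthetic enzyme gene of the ventral optic vesicle, was at 37.7 FPKM, whereas the related Aldh1a2 was at 0.0439 FPKM from fewer than 3 estimated counts. Of the degrading enzyme genes, Cyp26a1 was detected at 2.34 FPKM (1.63 to 3.05), while Cyp26b1 and Cyp26c1 were at 0.153 and 0.00942 FPKM. Dhrs3 was at 0.609 FPKM. All groups of the series were cultured with AGN at 0.1 µM, so no levels without it are at hand, and its part in these levels was not tested.

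Other growth factor and cytokine receptors were detected in 16 of 23 cases, led by the collagen receptor gene Ddr1 at 22.3, Tyro3 at 16.7, the BDNF receptor gene Ntrk2 at 13.1 and the shared cytokine receptor gene Il6st at 13.0 FPKM. The growth factor receptor gene Igf1r was at 11.9 FPKM. Eph receptors and ephrins, which sort cells at boundaries, were detected in 17 of 20 cases, with Efnb3 at 49.4 FPKM highest and then Ephb2, Epha4 and Efnb2. Efna1 at 0.693, Epha8 at 0.0253 and Epha6 at 0.0123 FPKM were not detected. Axon guidance receptors were detected in 14 of 21 cases, with the netrin receptor gene Neo1 at 34.0, Plxnb2 at 32.6, Plxna1 at 17.8 and Unc5b at 16.6 FPKM.

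Among junction genes, N-cadherin stood above E-cadherin. Of 24 cadherin and junction genes 20 were detected, with the β-catenin gene Ctnnb1 at 546 FPKM, Ctnna1 at 115, Cdh2 at 103.5 (84.0 to 123) and the polarity kinase gene Prkci at 60.4 FPKM. Cdh2 was apart from Cdh1, the E-cadherin gene, at 9.76 FPKM (7.75 to 11.8). Ocln at 0.680, Crb1 at 0.507, Cdh5 at 0.446 and Cldn5 at 0.370 FPKM were not detected. Of 21 basement membrane and integrin genes 20 were detected, with the integrin gene Itgb1 at 78.4, Col18a1 at 62.3, Lamb1 at 54.3 and Fn1 at 53.0 FPKM, and Lama3 at 0.0761 FPKM was the exception.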

How the data were processed

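Polyadenylated RNA of 2 untreated (0 h) samples of day 6 retinal organoids was read from tables that compare 0 h with 1, 8 or 24 h of dTAG-13, and the 0 h column of the table with 8 h was used. Per the file headers, the authors deposited FPKM with 2 bounds and a status. Per the file headers, the authors also deposited estimated counts per locus with a variance, scaled within each table. Each condition has 1 column, so both replicates are pooled. The submitters' processing notes name Cufflinks 2.2.1, Cuffdiff and mm10. The aligner, the strandedness of counting and the level of the interval are not given in the sources used here. Rounds of library preparation cannot be told from the columns and sample labels used here, and whether the 2 untreated samples shared a batch is not known.

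Of 35541 loci, those with no gene name (4904, 1.03% of the estimated counts), with several names (637, 4.68%), with a name that was the sole name of more than 1 locus (1093, 1.33%) or with another status than OK (2) were left out. Levels were used as deposited, and detection was set at an FPKM of at least 1. Biotypes and gene positions came from GENCODE M21 (GRCm38), matched by name and overlap, and promoters from RefSeq (GRCm38.p6). Of 711 list genes, 676 were in the set, 21 shared a merged locus, 11 had a name at several loci, and Tubb3, Foxf1 and Foxc2 were not matched by name. Genes overlapping a locus of higher FPKM are named as uncertain. List SDs used a pseudocount of 0.1 FPKM and the deposited count variances. No test between samples was possible. The scripts (Python 3.11.15, pandas 2.3.3, NumPy 2.4.6, matplotlib 3.10.9) were tested on simulated data.

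The genes and lists were chosen with earlier results of these data known. Named genes were the 6 markers, the 15 highest by FPKM (at least 100 estimated counts, no overlap with a higher locus), the 10 highest by estimated counts, the 20 highest transcription factors, and in each list the 4 highest, the defining gene, and the genes below 1 FPKM where 4 or fewer; a few of these are not reported here. Chosen after their values were seen were the long non-coding genes, the lower eye field and pluripotency genes, Cdkn1c, Cdkn2a, Cdk6, Cdh1 among the junction genes and the genes whose promoters are printed. Cyp26a1, Ptch1, Gli2, Otx1, and the left-out Sall1, Elavl3, Onecut1, Dhh and m6A genes, were also chosen in this way. Alternatives covered the other 2 tables, other detection limits, the lower bound, a count minimum, the pseudocount, loci without single names and promoter classes of equal size.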

Additional observations from a re-analysis of the deposited data

Results flagged for a closer look

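A few signals lay in loci outside the described genes, above the floor of 3 estimated counts. The 2 loci named Sox2 stood at 2.07 and 107.2 FPKM, the second from 7764 estimated counts. The merged locus of Ctbp2 and Fgfr2, the latter an FGF receptor gene, stood at 75.5 FPKM. The locus with the highest FPKM among those without a gene name, chrX:4136295-4136402 (mm10), was listed at 43065 FPKM from 37.7 estimated counts. In all, 33 unnamed loci reached 1000 FPKM, of which 29 spanned at most 200 bases, and 4384 of 4904 unnamed loci had more than 3 estimated counts.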

How the results depend on the processing

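No result changed direction under an alternative. Of the values that answer a comparison, 24 stayed within their spread or within 1.5 times and 4 did not; of the values for single lists, 269 did and 36 did not. Genes detected numbered 8555 to 12069 (11102 as reported). Over all loci with status OK, named or not, the 100 highest loci held 43.7% of the FPKM. That ranking includes the short unnamed loci of high FPKM described above. At an FPKM of at least 5, 35 of the genes of other regions and germ layers were detected (77 as reported). The log2 difference between the eye field and pluripotency medians (2.80 as reported) was 1.61 over members at an FPKM of at least 5, an alternative that leaves out the low pluripotency genes. It was 3.09 with the 0 h values of the 1 h table, in which Six3 and Nanog do not carry a single name. By estimated counts the top 100 genes held 16.6% (31.3% of FPKM), a scale without division by length. The 0 h values of the 1 h table had a median ratio of 0.988 to those used here, with 42 of 11008 genes over 1.5-fold apart, and those of the 24 h table differed over 1.5-fold in 0 of 11102. Leaving out each replicate could not be run, because both are pooled in 1 column. No paired analysis was possible because the columns carry no replicate numbers. Among the detected genes, 1326 overlap a locus of higher FPKM and 26 rest on under 10 estimated counts.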
